A study of Mus musculus with 24 samples.

Results

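Matricellular and provisional matrix genes were followed in whole mouse liver through 9 genes chosen by name: the thrombospondins Thbs1, Thbs2, Thbs3 and Thbs4, tenascin C (Tnc), Sparc, periostin (Postn), fibronectin (Fn1) and versican (Vcan). All 9 were among the 56205 Ensembl genes of the count table, and 8 of them were among the 17913 genes with enough counts to be tested. The mice were C57BL/6J of both sexes. For 20 weeks, 12 received a high-fat diet (FFD, made with cholesterol, fructose and palm oil) and 12 its control diet. They were 8 to 10 weeks old when the diets began. Whole-liver RNA was poly(A)-selected and gave 12 FFD and 12 control libraries. The series design gives 6 mice per sex on each diet, but no label ties a library to a sex.

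Matricellular proteins are secreted into the matrix without being its main structural fibers. They bind collagen, growth factors and cell-surface receptors, and most are scarce in resting adult tissue and abundant where tissue is repaired or scarred. A provisional matrix is the early scaffold of a wound, built from fibrin, plasma fibronectin and vitronectin together with hyaluronan and versican, and later replaced by collagen. In liver, hepatocytes secrete plasma fibronectin and fibrinogen, whereas stellate cells and fibroblasts are known sources of periostin, tenascin C and thrombospondin 2 in fibrosis.

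Library totals lay between 14468418 and 22112552 counts. Levels are given as CPM, counts scaled to a common library total with edgeR's TMM factors, and 3 counts equal on average 0.148 CPM in an FFD library and 0.175 CPM in a control library. The scaling factors were mostly higher on FFD, at 0.995 to 1.34 against 0.679 to 1.01 in control libraries. Control replicate 10 stood apart with the lowest total and the lowest scaling factor, 0.679, and FFD replicate 9 with the highest factor, 1.34. FFD replicate 9 was also the highest library for Sparc, Thbs2 and Thbs3 and the lowest for Fn1. Without it their log2 fold changes were 1.46, 1.39, 0.88 and -0.47, and no call among the 9 genes changed. Control replicate 11 had the highest level among control libraries for 5 of the 9 genes. It also had the highest sum over 9 markers of myofibroblasts, 253 CPM against a control median of 68.4. The libraries further fell into 2 sets of 12, each with 6 per diet, with 2664 to 6285 or with 0 to 3 counts of the X-linked transcript Xist, and values are also given within these sets.

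Thbs1, Thbs2, Tnc, Sparc, Postn and Vcan rose on FFD, where a call needed a log2 fold change beyond 0.5 in either direction with an adjusted p no higher than 0.01. These were 6 of the 8 genes tested, where 13.2% of all genes tested were called higher. None of the 8 was called lower, against 4.99% of all genes. Thbs3 and Fn1 had adjusted p-values of 0.0146 and 0.0122, just above the threshold, with Thbs3 higher and Fn1 lower on FFD. The median log2 fold change of the 8 genes was 1.5, and that of all genes tested was -0.03. Whole-liver RNA cannot tell apart a change in the number of the cells that make a transcript from a change in the transcript per cell.

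Promoter sequence was available for 7 of the 9 genes in RefSeq (GRCm38.p6), as 9 windows of which those of Tnc overlap. The 250 bases before an annotated start of Thbs2, Tnc and Postn are printed because these 3 genes rose and each window holds the letters of the TATA motif (TATAAA on either strand), shown in capitals. Tnc and Postn also have another annotated start, whose window is not printed. Each runs 5′ to 3′ toward its gene. That of Thbs2 lies at chr17:14694263-14694512 on the minus strand, that of Tnc at chr4:64047016-64047265 on the minus strand, and that of Postn at chr3:54360857-54361106 on the plus strand, and none of them overlaps an exon of GENCODE M21.
Thbs2: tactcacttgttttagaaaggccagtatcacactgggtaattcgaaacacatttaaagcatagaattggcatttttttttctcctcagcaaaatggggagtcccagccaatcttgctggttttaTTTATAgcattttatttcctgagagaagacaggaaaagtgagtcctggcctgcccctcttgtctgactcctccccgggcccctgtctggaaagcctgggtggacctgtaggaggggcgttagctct
Tnc: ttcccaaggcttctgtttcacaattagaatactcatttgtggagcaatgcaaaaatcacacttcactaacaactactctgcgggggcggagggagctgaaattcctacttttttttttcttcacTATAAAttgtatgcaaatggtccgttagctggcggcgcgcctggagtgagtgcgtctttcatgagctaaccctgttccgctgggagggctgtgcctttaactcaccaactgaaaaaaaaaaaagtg
Postn: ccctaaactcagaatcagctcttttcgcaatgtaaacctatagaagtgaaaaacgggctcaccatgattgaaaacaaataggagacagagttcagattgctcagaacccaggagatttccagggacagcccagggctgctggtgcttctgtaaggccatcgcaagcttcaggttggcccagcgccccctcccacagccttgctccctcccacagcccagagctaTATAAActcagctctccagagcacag
In Postn the match began 26 bases before the start. In Tnc and Thbs2 it began 126 bases before it, and in Thbs2 it reads on the opposite strand. In the other Tnc window the same match began 205 bases before the start, and the other Postn window held none of the motifs searched. These letters were in 4 of the 9 windows, against 12.4% of all 32851 promoter windows. The letters of an AP-1 motif (TGANTCA) and of a RUNX motif (TGTGGT) were in none of the 9 windows, against 6.75% and 14% of all windows. Those of a TEAD motif (GGAATG) were found in Thbs4 only, in 2 matches that share 1 base, against 12.6% of all windows. Both strands were searched, and a match is a description of the letters only. Of the 250 bases, 238 lay in exons of GENCODE M21 in the Sparc window and 79 in the other Tnc window. The search in Sparc therefore read mostly exon sequence.

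Divided by the length of their exons in GENCODE M21, the 9 genes spanned several orders of magnitude, and their means stood in the same order on both diets when all 24 libraries were used. Fn1 was the highest, with 145 ± 36.2 CPM per kb of exon (SD, n = 12) on the control diet and 101 ± 32 (SD, n = 12) on FFD. Sparc followed with 14.2 ± 5.14 and 42.3 ± 15.8 CPM per kb (SD, n = 12 per diet). The other 7 genes lay between 0.98 and 0.00149 CPM per kb in the control mean, in the order Postn, Thbs2, Thbs1, Tnc, Thbs3, Vcan and Thbs4.
The order of neighbors was not equally firm from library to library. Fn1 was above Sparc in 12 of 12 control and 11 of 12 FFD libraries, and Sparc above Postn in all 24. Thbs1 was above Tnc in 9 of 12 control and 8 of 12 FFD libraries, so their order was within the spread. Tnc was above Thbs3 in 5 of 12 control libraries and in 12 of 12 FFD libraries. Without control replicate 11, a check chosen after the values were seen, the control means of these genes turned, to 0.117 CPM per kb for Tnc and 0.123 for Thbs3. The lengths are those of GENCODE M21, which was not stated to be the annotation used for counting.

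**Figure D1:**
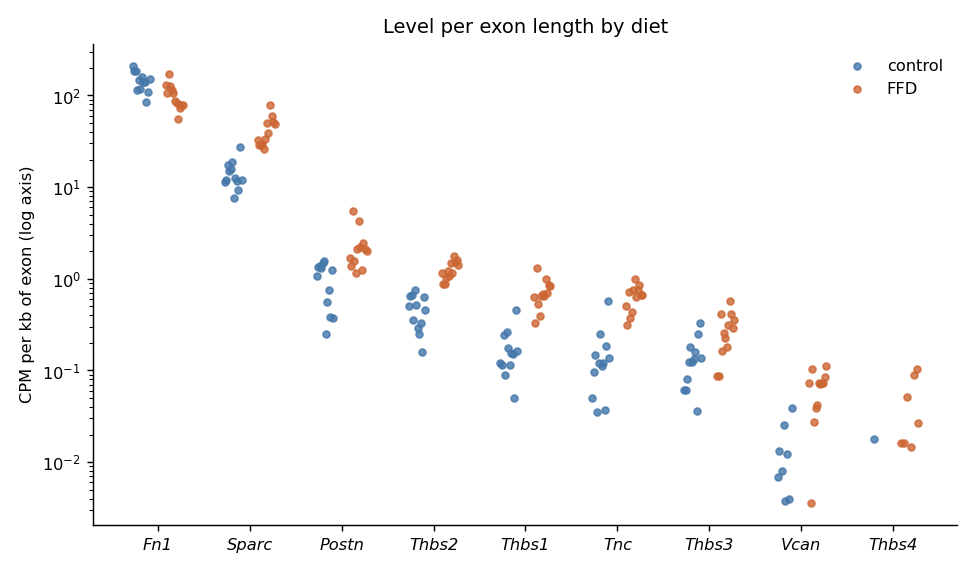
Level of each of the 9 genes per exon length (CPM per kb, log axis), 1 point per library, control in blue and FFD in orange, with libraries at 0 counts not drawn (4 control libraries for Vcan, 11 control and 5 FFD libraries for Thbs4). Fn1 lies highest and lower on FFD than on the control diet, and the points of the other genes shift upward on FFD.

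Among the thrombospondins, Thbs1 and Thbs2 rose. Both encode trimeric proteins that bind the receptors CD36 and CD47 and restrain angiogenesis, and Thbs1 also activates latent TGF-beta. Thbs1 (ENSMUSG00000040152, chromosome 2, 118111876 to 118127133 in GRCm38) lay between 0.305 and 2.77 CPM (median 0.932) on the control diet and between 2.02 and 7.99 CPM (median 4.01) on FFD. The highest control library was replicate 11. Every FFD library exceeded the other 11, and 10 exceeded replicate 11 as well. FFD raised it by 2.01 on the log2 scale, with a standard error (SE) of 0.26 (adjusted p = 3.21e-06, edgeR quasi-likelihood test), a 4.02-fold difference. Without control replicate 11 it was 2.23.
Thbs2 (ENSMUSG00000023885, chromosome 17, 14665500 to 14694235) was the only gene of the 8 whose diets did not overlap, which held for 1.48% of all genes tested in this direction and for 0.402% in the other. Its control libraries ran from 1.12 to 5.22 CPM (median 3.35) and its FFD libraries from 6.07 to 12.3 CPM (median 8.33). Replicate 11 was not the highest control library here. By the same test its rise was 1.44 on the log2 scale (SE 0.19, adjusted p = 4.09e-06). On FFD, Thbs2 had the smallest spread of the 9 genes, with a coefficient of variation of 23.0% against 31.6% to 137% for the others.

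Thbs3 and Thbs4 encode the pentameric thrombospondins, which lack the type 1 repeats of Thbs1 and Thbs2. Thbs3 (ENSMUSG00000028047, chromosome 3, 89215180 to 89226837) ran from 0.173 to 1.59 CPM (median 0.625) on the control diet and from 0.415 to 2.79 CPM (median 1.32) on FFD. The ranges overlapped widely, with 4 of 12 FFD libraries above the highest control library. Its log2 fold change was 1.03 (SE 0.33), and the adjusted p of 0.0146 (edgeR quasi-likelihood test) missed the threshold. Thbs3 was called higher by DESeq2 (adjusted p = 0.00521), with library totals in place of TMM, with the library set as a covariate, and without control replicate 10, control replicate 11, FFD replicate 1 or FFD replicate 2. Of its exon bases, 6.59% are shared with Mtx1 on the opposite strand, which had up to 818 counts in a library, and whether the counting used strand is not given in the sources used here.
Thbs4 (ENSMUSG00000021702, chromosome 13, 92751590 to 92794818) was near the floor of detection. It had 22 counts in all FFD libraries together, found in 7 of 12, and 1 count in all control libraries. FFD replicates 9 and 11 held 14 of the 22 counts. Per library total scaled with the TMM factors the ratio was 19.1, with a 95% interval of 3.09 to 789 from an exact binomial interval, which covers counting error only. The gene did not reach 1 count in 12 libraries and was not tested.

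Tenascin C, Sparc and periostin rose as well. Tenascin C is a hexameric glycoprotein of wound beds that modulates cell adhesion. Tnc (ENSMUSG00000028364, chromosome 4, 63959785 to 64047015) ran from 0.273 to 4.47 CPM (median 0.941) in control libraries and from 2.44 to 7.82 CPM (median 5.2) in FFD libraries. Control replicate 11 was at 4.47 CPM and the next control library at 1.94 CPM, below every FFD library. Tnc rose by 2.04 on the log2 scale (SE 0.33, adjusted p = 3.57e-05, edgeR quasi-likelihood test), and by 2.45 without that library.
SPARC, also called osteonectin, binds collagen and calcium and takes part in collagen fibril assembly. Sparc (ENSMUSG00000018593, chromosome 11, 55394500 to 55423183) had 351 to 1810 counts per control library and 1766 to 6998 per FFD library, so counting error was small. It stood at 29.1 to 103 CPM (median 46.6) in control and at 98.5 to 296 CPM (median 138) in FFD libraries. The diets met only at control replicate 11, which 11 of 12 FFD libraries exceeded, and the next control library stood at 70.4 CPM. The rise of Sparc was 1.57 on the log2 scale (SE 0.20, adjusted p = 1.96e-06, the same test).
Periostin is a partner of collagen, tenascin C and integrins that aids collagen cross-linking. Postn (ENSMUSG00000027750, chromosome 3, 54361109 to 54391037) ran from 2.16 to 13.5 CPM (median 10.2) on the control diet and from 10.1 to 47.2 CPM (median 17.8) on FFD. FFD replicate 3 was the highest library, followed by replicate 7, and 9 of 12 FFD libraries exceeded the highest control library. Postn rose by 1.22 on the log2 scale (SE 0.29, adjusted p = 0.0018, the same test), and by 1.03 without FFD replicate 3.

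Versican is a large proteoglycan that binds hyaluronan and gives the provisional matrix its swollen, cell-permissive character. Vcan (ENSMUSG00000021614, chromosome 13, 89655312 to 89742509) was scarce, with 0 to 10 counts per control library and 1 to 37 per FFD library, so single libraries carry a large counting error. It ran from 0 to 0.566 CPM (median 0.0783, with 4 libraries at 0) on the control diet and from 0.0519 to 1.64 CPM (median 1.06) on FFD. FFD replicate 2, with 1 count, lay within the control range, and 9 of 12 FFD libraries exceeded the highest control library, replicate 11. Its rise of 2.67 on the log2 scale (SE 0.51, adjusted p = 0.000191, edgeR quasi-likelihood test) was 3.10 without control replicate 11.

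Fibronectin had a lower level on FFD, without passing the test. Fn1 (ENSMUSG00000026193, chromosome 1, 71585520 to 71653200) encodes both the plasma form made by hepatocytes and the cellular form deposited in tissue, which differ by splicing and share 1 count per gene here. It ran from 995 to 2462 CPM (median 1689) on the control diet and from 655 to 2021 CPM (median 1121) on FFD. The diets overlapped, with 3 control libraries above the highest FFD library and 5 FFD libraries below the lowest control library, replicate 10. Its log2 fold change of -0.52 (SE 0.16) had an adjusted p of 0.0122 (edgeR quasi-likelihood test). The same direction passed with DESeq2 (adjusted p = 0.00464), with the library set as a covariate (adjusted p = 0.00104, edgeR), with the replicate block (adjusted p = 0.00333, edgeR) and without control replicate 10, control replicate 11, FFD replicate 1 or FFD replicate 3 (adjusted p = 0.00428, 0.00908, 0.0095 and 0.00206, edgeR). With library totals in place of TMM the value was -0.28, and the median of all genes then moved from -0.03 to 0.26.
The hepatocyte-made partners of Fn1 in the provisional matrix also had lower levels on FFD. Fga, Fgb and Fgg, which encode the chains of fibrinogen, fell by 0.56, 0.65 and 0.64 on the log2 scale (adjusted p = 0.00399, 0.00131 and 0.00161, edgeR), and the change of vitronectin (Vtn), -0.40, did not reach the fold threshold. With library totals none of the fibrinogen chains was called, at -0.29, -0.38 and -0.35 (adjusted p = 0.0961, 0.0292 and 0.024, edgeR), and without control replicate 12 Fga was not called. Fn1 had 0.461 ± 0.0972 counts per count of Fgb on the control diet and 0.494 ± 0.0767 on FFD (SD, n = 12 per diet), with overlapping ranges of 0.332 to 0.648 and 0.302 to 0.585. Alb, the defining hepatocyte transcript, fell by 0.72 on the log2 scale (adjusted p = 0.00211, edgeR, and -0.48 with adjusted p = 0.0162 on library totals). Of 7 hepatocyte markers 5 were called lower, against 4.99% of all genes tested. The summed level of the markers ran from 80219 to 128432 CPM in control and from 36459 to 90070 CPM in FFD libraries. On library totals Alb, Apoa1 and Ttr were not called (-0.48, -0.43 and -0.32), while Tat and Cps1 still were (-1.07 and -0.73). The part of hepatocyte RNA in the value of Fn1 was not tested.

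**Figure D2:**
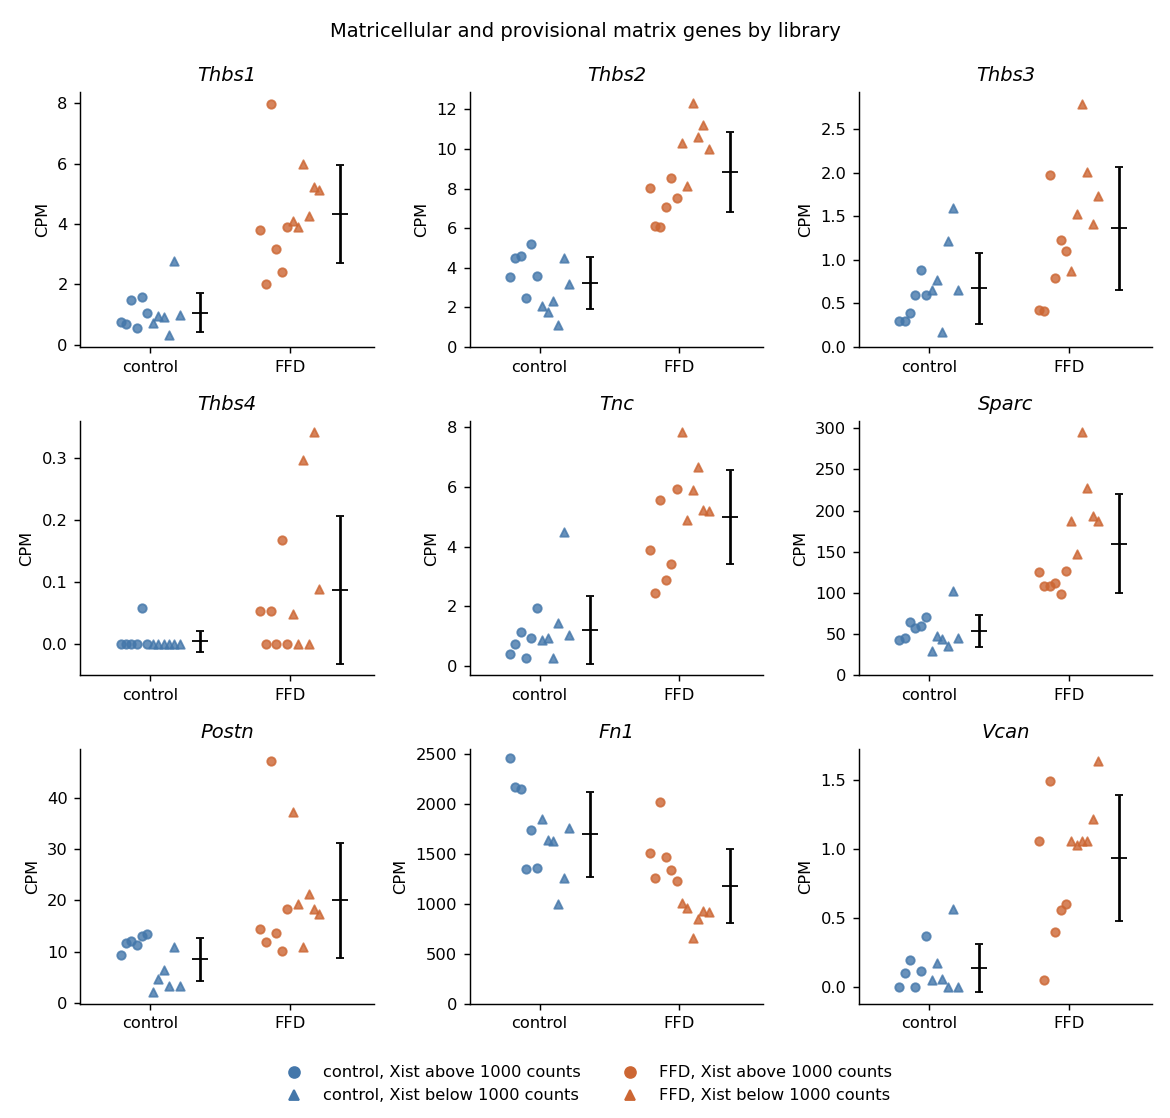
CPM of each gene in every library, with 1 panel per gene and its own linear axis, control in blue and FFD in orange, circles and triangles for the sets with Xist above and below 1000 counts, and black bars for the mean and SD of 12 libraries. Thbs2 shows no overlap of the diets, Sparc, Tnc and Thbs1 overlap through the highest control library, and Fn1 lies lower on FFD.

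The size of the diet effect differed between the 2 sets of libraries for Thbs2 and Sparc. In the set with Xist below 1000 counts, the rise of Thbs2 was 2.07 on the log2 scale (SE 0.25), and in the set with Xist above 1000 counts it was 0.85 (SE 0.17). The difference of 1.19 had an adjusted p of 0.0115 (edgeR, interaction of diet with set). For Sparc the values were 2.05 (SE 0.27) and 0.99 (SE 0.12), and the difference of 1.03 had an adjusted p of 0.0292 (edgeR). At an adjusted p of at most 0.05 this interaction was found for 10.2% of all genes tested. On FFD, Sparc ran from 98.5 to 127 CPM in the set with higher Xist and from 148 to 296 CPM in the set with lower Xist, so these libraries stood apart. For Thbs2 they overlapped slightly, at 6.07 to 8.53 and 8.13 to 12.3 CPM.
For Postn the difference between the sets was 1.29 with a standard error of 0.50 and did not pass (adjusted p = 0.101, edgeR). Without control replicate 11 the difference was 1.65 and its adjusted p 0.0198 (edgeR). In the set with Xist above 1000 counts, the Postn libraries overlapped between diets and the adjusted p of its diet effect was 0.135 (log2 fold change 0.70, edgeR), and in the other set the 2.01 log2 fold change had an adjusted p of 0.000559 (edgeR). The control libraries themselves differed between the sets, at 11.9 ± 1.46 CPM (SD, n = 6) with Xist above 1000 counts and at 5.17 ± 3.17 (SD, n = 6) below, and FFD libraries were at 19.3 ± 13.9 and 20.7 ± 8.8 CPM (SD, n = 6 each).
Thbs1 and Tnc rose in both sets, with log2 fold changes of 1.93 for Thbs1 and 2.12 for Tnc where Xist was above 1000 counts and of 2.08 and 1.99 where it was below, and the differences of 0.14 (SE 0.51) and -0.16 (SE 0.59) did not pass. Without control replicate 11 they were 0.65 (SE 0.46) and 0.61 (SE 0.50) and did not pass either (adjusted p = 0.389 and 0.474, edgeR). Their diets did not overlap in either set, and the same held for Thbs2 and Sparc. Separation of this kind was seen upward in 3.51% of all genes tested in the set with Xist above 1000 counts and in 12.6% in the set with Xist below it, and downward in 2.39% and 9.66%. Vcan was called in the set with Xist below 1000 counts only (adjusted p = 0.00144, against 0.0417 in the other, edgeR), and its difference between sets, 0.57 with a standard error of 1.04, did not pass, nor did it without control replicate 11, at 1.77 (adjusted p = 0.295, edgeR). In the sets with Xist above and below 1000 counts, Fn1 had log2 fold changes of -0.35 and -0.76 (adjusted p = 0.183 and 0.00228, edgeR), with a difference of -0.43 that did not pass (adjusted p = 0.279).
In the set with Xist above 1000 counts, 4 of the 8 genes were called higher (Thbs1, Thbs2, Tnc and Sparc), against 2.82% of all genes, and none lower, against 0.979%. In the other set 6 were called higher, against 14.3%, and Fn1 was called lower, against 7.89%.

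**Figure D3:**
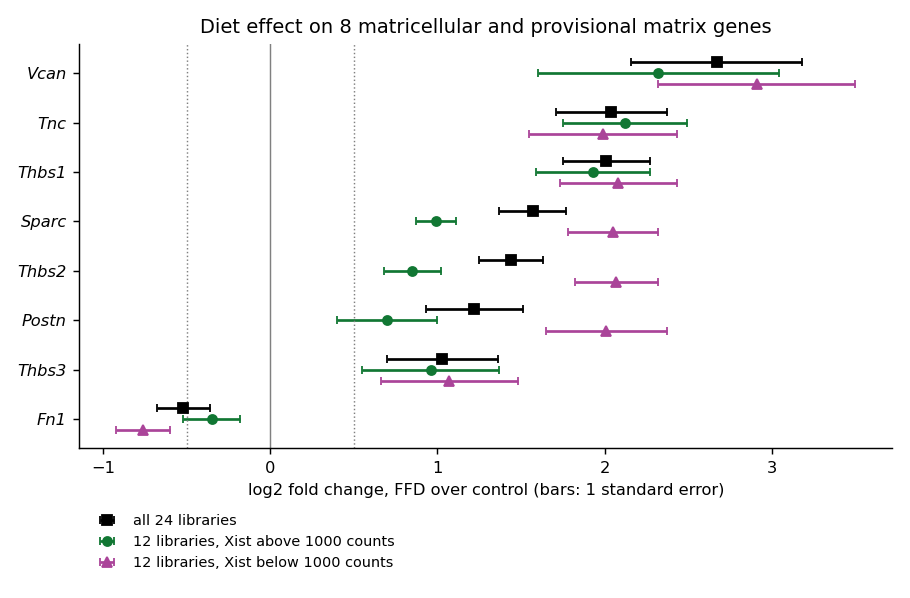
Log2 fold change of FFD over control for the 8 tested genes, with bars of 1 standard error, in all 24 libraries (squares) and in the 12 libraries with Xist above (circles) or below (triangles) 1000 counts. The circles and triangles of Thbs2, Sparc and Postn lie apart, those of Thbs1, Tnc and Thbs3 lie close together, and Fn1 is the only gene left of 0.

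Genes related to the 9 by family or function were followed in 5 lists holding 70 genes, of which 59 were tested, 26 were called higher (44.1%) and 5 lower (8.47%), against 13.2% and 4.99% of all genes. With library totals 33 were called higher and none lower, so that the 5 lower calls depend on the scaling. Their median log2 fold change was 0.78. Among relatives, which comprise other matricellular proteins and the lecticans akin to versican, 7 of 15 tested genes rose and none fell, with a median log2 fold change of 0.89. The call of 1 of these 7 was lost in 17 of the 24 fits that left out 1 library. The largest rises were those of Ccn5, a CCN family protein, at 2.72 (SE 0.62), and Spp1, which encodes osteopontin, at 2.62 (SE 0.42). Without FFD replicate 9 they were 1.69 and 2.38. The Sparc relatives Sparcl1 and Smoc2 rose by 1.51 and 1.20, and the periostin relative Tgfbi by 1.01. Without FFD replicate 9, Sparcl1 was at 1.03 and was not called (adjusted p = 0.0155, edgeR). Smoc1, also a Sparc relative, had a log2 fold change of -0.45 (adjusted p = 0.00473, edgeR), short of the fold threshold. Comp, the remaining thrombospondin, had only 25 counts in all libraries and did not pass (adjusted p = 0.228, edgeR), and the lecticans Acan and Bcan had none. Ccn1 and Ccn2, immediate targets of growth and stretch signals, had log2 fold changes of 0.71 and 0.70 and did not pass (adjusted p = 0.0188 and 0.0503, edgeR).
Of 9 tested partners of the provisional matrix, 2 rose and 3, the fibrinogen chains, fell, with a median of -0.40. Those that rose were F13a1, a subunit of the clotting factor that cross-links fibrin to fibronectin, at 2.32 (1.67 without FFD replicate 3), and Tgm2, a transglutaminase that cross-links fibronectin, at 1.20 with no overlap between diets. The hyaluronan synthases Has1 and Has2 had 7 and 2 counts in all libraries together and were not tested, and Has3 did not pass.
Among 15 receptors, 5 rose and none fell, with a median of 0.10. The rises were those of the hyaluronan receptor Cd44 at 1.53, of Itga8 at 1.34 and Itga9 at 0.77, which encode integrin chains for tenascin C and other matrix proteins, of Itgb5 at 0.70, and of Cd36, which binds thrombospondins and also takes up fatty acids, at 1.04. The call of Cd36 was lost in 11 of the 24 fits that left out 1 library. Cd47, the other thrombospondin receptor, was at 77.3 ± 10.1 CPM on the control diet and 74 ± 4.78 on FFD (SD, n = 12 per diet), with a log2 difference of -0.06 (SE 0.07). The fibronectin receptor chains Itga5 and Itgb1 had log2 fold changes of 0.25 and 0.10 and were not called.

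Of 12 tested proteases that cut or process these proteins, 7 rose and 2 fell, with a median log2 fold change of 1.33. Adamts4, Adamts5, Adamts9 and Adamts15, all known to cleave versican, rose by 2.89, 0.95, 1.48 and 1.52, with the call of Adamts5 lost in 9 of the 24 fits that left out 1 library, whereas Adamts1 had 0.29 and did not pass (adjusted p = 0.118, edgeR). The largest rise was that of Plat, tissue plasminogen activator, at 3.17 (standard error 0.46). The 2 that fell were Bmp1, a procollagen proteinase that also processes other matrix proteins, by 0.76 and Plg, the hepatocyte-made plasminogen, by 0.68 on the log2 scale, and neither was called on library totals (-0.48 and -0.41). In the TGF-beta axis, a growth factor pathway that Thbs1 activates and that induces several of the 9 genes, 5 of 8 genes rose with a median of 1.18. Among them were the ligands Tgfb1 at 1.29, Tgfb2 at 2.49 (1.71 without FFD replicate 9) and Tgfb3 at 1.85 (1.33 without it) and the latency protein Ltbp1 at 1.07, while Smad7, a target gene and inhibitor of the pathway, had a log2 fold change of -0.49 and did not pass (adjusted p = 0.011, edgeR).

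**Figure D4:**
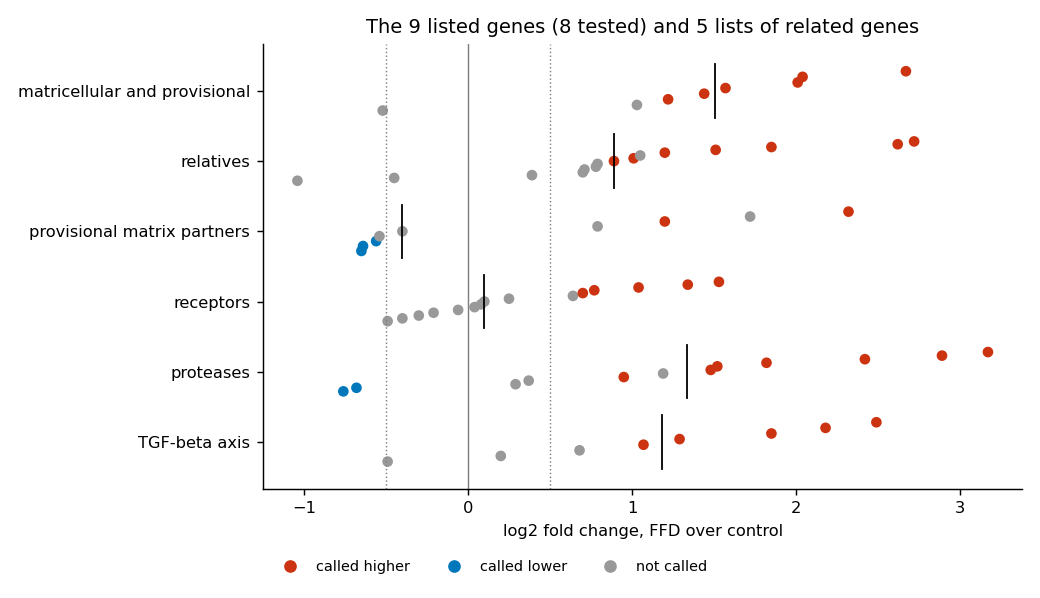
Log2 fold change of FFD over control for the tested genes of the 9-gene list and of 5 lists of related genes, with red for genes called higher, blue for genes called lower, gray for those not called, black bars for list medians and dotted lines at 0.5 and -0.5. Relatives, proteases and the TGF-beta axis have medians of 0.89, 1.33 and 1.18, and the fibrinogen chains are the blue points among the provisional matrix partners.

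Markers of several cell types moved with the diet. Of 9 myofibroblast markers 7 were called higher, and their summed level ran from 55.9 to 253 CPM in control and from 188 to 704 CPM in FFD libraries. The contractile markers Acta2 and Tagln were not called (log2 fold changes 0.53 and 0.47). On library totals both were called higher, at 0.84 and 0.79 (adjusted p = 0.000905 and 0.000645, edgeR). Acta2 was also called without control replicate 11, and Tagln without control replicate 10. All 7 markers of monocyte-derived macrophages were called higher, with sums of 14 to 78.5 and 95.2 to 293 CPM, as were 4 of 5 cholangiocyte markers, with sums of 4.78 to 14.4 and 5.28 to 158 CPM, 3 of 5 portal fibroblast markers, with 7.05 to 16.9 and 15.2 to 73.1 CPM, and 3 of 4 markers of continuous endothelium, with 66.6 to 134 and 134 to 203 CPM. The rise of the cholangiocyte markers leaned on FFD replicate 9: the median FFD sum was 13.3 CPM, and without that library Krt19, Krt7 and Epcam were at 1.68, 1.76 and 1.53 in place of 2.72, 2.71 and 2.31, and Cftr was not called. Fewer were called higher for quiescent stellate cells (2 of 7), mesothelium (2 of 5), vascular smooth muscle (1 of 4), sinusoidal endothelium (1 of 5), platelets (1 of 6) and Kupffer cells (0 of 4). Of all genes tested, 13.2% were called higher, the share against which each of these counts stands. The call of Vwf, a marker of continuous endothelium, was lost in 9 of the 24 fits that left out 1 library. That of Stab2, the called marker of sinusoidal endothelium, was lost in 5. No marker was at 0 in all libraries. The part of these cell types in the changes of the 9 genes was not tested.

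The genes most like each of the 8 tested genes were sought by the mean absolute difference of standardized log2 levels over 24 libraries. The mean of each diet in each library set was removed first, so that differences of these means did not enter. Each gene was then divided by 1 SD over all 24 libraries, so differences in spread between diets or sets remained. Among 13927 other genes the nearest to Sparc was Ccdc80, at 0.35 SD against a median of 1.04 over all genes, followed by Tagln2 and Cdk14. Ccdc80, which encodes a secreted matrix protein, was also second nearest to Thbs1, after Cd93 and before Prkar2b. Nearest to Thbs2 were Nol4l, Kirrel and Snai1, and nearest to Tnc S100a11, Unc119 and Cavin1. Vcan was nearest to Thbs1 itself (0.526 SD), then Unc45b and Car2, and Thbs3 to Ahnak, Slc37a1 and Slc25a4. Postn stood with Serpina3f, Serpina3g and the sinusoidal endothelial gene Stab2, and Fn1 with Ganab, Vegfa and Usp15. These distances rest on differences between libraries of a diet and are given as a description.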

How the data were processed

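RNA-Seq was analyzed for 24 libraries of mouse liver. The deposited values are raw counts, 1 whole number per Ensembl gene and library. The submitters' processing notes name bcl2fastq, STAR 2.7.3a and mm10, and the supplemental methods name an exon quantification pipeline and PISCES for reads aligned to a human reference. Which program and annotation gave the mouse counts is not given in the sources used here. Symbols came from GENCODE M21 and matched 51745 of 56205 gene IDs, and IDs without a symbol held 0.0723% of the counts. Groups and replicate numbers were taken from the library titles.

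The 17913 genes detected (1 count or more) in 12 or more libraries were fitted with edgeR 4.0.16 in R 4.3.3 (TMM, quasi-likelihood test, diet as the only term), with p-values adjusted over all of them by the Benjamini-Hochberg method. Standard errors (SE) were derived from the fold change and the F statistic. Within a library set the filter was 1 count in 6 or more libraries. Alternatives were DESeq2 1.42.0, limma-voom (limma 3.58.1), 2 other scalings, 3 filters, 2 thresholds, a replicate block, the library set as a covariate and each library left out. On simulated counts of 17729 genes, 97% of 100 genes changed by 2 on the log2 scale were recovered. Of 100 genes changed by 1, 67% were recovered, and 1 unchanged gene was called. Changed genes were picked only where counts averaged 10 or more across libraries, so these shares do not describe scarcer genes. No libraries of a diet were alike within sampling noise (lowest chi-square per degree of freedom 9.48). The genes, lists and library sets were chosen with earlier results of these data known. Genes named from the related lists were the 2 largest called rises and falls of each and those that a sentence on the 9 genes needed. Likeness used log2(CPM + 1) for genes with a mean of at least 10 counts. One gene of the related lists is counted but not reported by name here.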

Additional observations from a re-analysis of the deposited data

Results flagged for a closer look

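The diet effect of Thbs2 was larger by 1.19 on the log2 scale (standard error 0.30, adjusted p = 0.0115, edgeR, interaction of diet with library set) in the 12 libraries with Xist below 1000 counts than in the 12 with Xist above 1000 counts. FFD libraries were at 10.4 ± 1.38 CPM and control libraries at 2.48 ± 1.18 in the former set, against 7.22 ± 1 and 3.99 ± 0.988 in the latter (SD, n = 6 each). For Sparc the difference was 1.03 (standard error 0.30, adjusted p = 0.0292, edgeR), with 207 ± 50.5 and 50.7 ± 26.3 CPM against 113 ± 11 and 56.9 ± 10.9 (SD, n = 6 each). Without control replicate 11 the differences were 1.45 and 1.36. These 2 were among the 8 genes tested, and 10.2% of all genes passed the same test. The difference between sets was fitted with TMM scaling only. The library sets were drawn from Xist counts and not from a label. Each set has 6 libraries per diet, the number of mice per sex in the design, but no label ties a library to a sex. Which property of the sets the difference follows was not tested.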

How the results depend on the processing

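The 6 rises kept their direction in every fit, the library sets included, and stayed past the threshold except those of Postn (log2 fold change 0.70) and Vcan (2.32) in the libraries with Xist above 1000 counts. Vcan was not tested after edgeR's default filter, nor Thbs1, Thbs3, Tnc or Vcan where at least 10 counts were required in every library, so that 3 genes were called higher there. Of the 9 genes, none was called lower in the 24 libraries, but Fn1 (1 gene) was with the replicate block, with the library set as a covariate, with DESeq2, in the libraries with Xist below 1000 counts and with no fold threshold at an adjusted p up to 0.05. With each library left out in turn this number was 0 to 1, and it was 1 without FFD replicate 1 or 3 or control replicate 10 or 11. Without a filter Thbs4 was called higher (adjusted p = 0.00504, edgeR). With 0.1 in place of 1 added to CPM, no permutation test of the 8 genes crossed 0.05.

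Library totals gave 3827 higher and 226 lower genes, against 2372 and 894, and 0 lower related genes against 5. A minimum of 10 counts in every library gave 1230 higher genes. In the set with Xist above 1000 counts, 509 genes were higher and 177 lower (10 and 2 related genes), and the set below gave 1430 lower genes (8 related). An adjusted p of at most 0.05 alone gave 3709 higher and 3388 lower genes (11 related genes lower), and requiring a fold change beyond 1 (log2) left 216 lower genes (0 related). Except where the filter or the threshold differed, the cause was not tested. This includes the counts in the 2 library sets, which hold 12 libraries each.

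Replicate numbers are shared between diets. Deviations from the diet mean correlated at -0.0935 for number 9 and at 0.155 to 0.541 for the others, with 2 of 12 libraries closest to their own number, so the numbers were not taken as pairs. On both diets, numbers 1 to 6 were the set with Xist above 1000 counts and 7 to 12 the set below. These correlations and the replicate block therefore also carry the difference between library sets. With the replicate block, 6 of the 9 genes were higher and 1 lower, Fn1 at -0.54. Without control replicate 11, the difference between library sets changed sign for Tnc, from -0.16 to 0.61 (adjusted p = 0.474, edgeR). Counts of Thbs4 and of Vcan in control libraries were too few to bound their levels closely.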

Other observations

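The make-up of the transcripts of the 9 genes differed between the diets. Fn1 held 90.8% to 98.1% of the counts on these genes in control libraries, with a median of 96.4%, and 66.2% to 91.9% in FFD libraries, with a median of 86%. Sparc held 1.54% to 7.38% and 4.92% to 29.9%, with medians of 2.86% and 11%. Thbs2 had 3.45 ± 1.33 counts per count of Thbs1 on the control diet and 2.24 ± 0.671 on FFD (SD, n = 12 per diet), with overlapping ranges of 1.61 to 6.5 and 0.76 to 3.56. Sparc had 3.84 to 13.9 counts per count of Postn on the control diet and 2.29 to 27.1 on FFD. These measures were chosen after the values were seen and were not tested.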
